A study of Homo sapiens with 17 samples.

Results

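The genes described here encode 43 proteins of the centromere and the kinetochore, the assembly that joins chromosomes to spindle microtubules, together with adaptors of the spindle checkpoint and the chromosomal passenger and shugoshin proteins. They were taken by name, without the kinases that act at the same place. Earlier results of these data were known when the list was chosen. All 43 were found among the 25548 gene symbols of the deposited table, and all 43 were among the 12015 genes with a mean of at least 1 FPKM that were tested. FPKM counts fragments per kilobase of transcript, scaled to the mapped fragments of the library. RNA came from Jurkat cells, a long established line grown from a human acute T cell leukaemia, after 6, 12 or 24 h with ILT3.Fc at 25 or 12.5 µg/ml or without it (0 µg/ml). ILT3.Fc fuses the outer portion of ILT3, an inhibitory receptor encoded by LILRB4, with the Fc of an antibody, and is soluble. There were 17 libraries in 9 groups of dose and time, 2 in each group except for untreated cells at 12 h, which had 1. All groups were the same cell line in the same serum-containing medium, and the labels name no control protein for the Fc part. The labels call the second library of a group a duplicate and do not say whether it was a separate culture, so p-values measure a spread between samples that may be technical only.

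A centromere is marked by nucleosomes that carry the histone H3 variant CENP-A, and new CENP-A is brought there by the chaperone HJURP after the Mis18 proteins have prepared the site. The constitutive network of CENP proteins binds this chromatin through the cell cycle and carries the KMN network (KNL1, Mis12 and Ndc80 complexes), whose Ndc80 complex holds microtubules. The corona adds the motor CENP-E and the checkpoint proteins, and the passengers INCENP, survivin and borealin position the kinase Aurora B. Many of these genes are transcribed late in the cell cycle, and in a growing culture their RNA also follows how many cells are close to mitosis. In bulk RNA, fewer cells in that phase and less RNA per cell cannot be told apart.

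Late cell cycle genes are known for 2 short promoter elements, the CHR (cell cycle genes homology region) and CCAAT boxes, and the promoters of these genes were read for them because many of the genes moved together. RefSeq promoter windows of 300 bases (GRCh38.p14, 250 before the annotated start and 50 after) were matched for 35 of the 43 genes, in 40 windows. The windows were searched on both strands for TTTGAA or TTCGAA as the CHR, for CCAAT, and for TTTGGCGC, TTTCGCGC or TTTCCCGC as E2F motifs. No letters of one motif can lie wholly inside a match to another. Below are the 150 bases upstream of the start, 5′ to 3′ on the gene's strand, with CHR and CCAAT matches of either strand in capitals (a CCAAT box on the other strand reads ATTGG). The first 4 were chosen as examples with a CHR in the part shown, and CENPF and CENPE because they changed most at 24 h.
CENPA (chr2:26785906-26786055, plus strand): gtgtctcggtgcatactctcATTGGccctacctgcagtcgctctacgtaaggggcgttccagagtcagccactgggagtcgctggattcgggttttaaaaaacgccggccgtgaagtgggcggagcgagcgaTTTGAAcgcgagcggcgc
HJURP (chr2:233854536-233854685, minus strand): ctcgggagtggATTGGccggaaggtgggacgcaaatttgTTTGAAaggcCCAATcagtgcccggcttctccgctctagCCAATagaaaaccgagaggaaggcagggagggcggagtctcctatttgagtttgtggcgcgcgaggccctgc
CDCA8 (chr1:37692366-37692515, plus strand): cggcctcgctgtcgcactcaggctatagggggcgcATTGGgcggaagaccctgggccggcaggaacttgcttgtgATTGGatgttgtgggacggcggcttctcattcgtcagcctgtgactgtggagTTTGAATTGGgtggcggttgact
INCENP (chr11:62123861-62124010, plus strand): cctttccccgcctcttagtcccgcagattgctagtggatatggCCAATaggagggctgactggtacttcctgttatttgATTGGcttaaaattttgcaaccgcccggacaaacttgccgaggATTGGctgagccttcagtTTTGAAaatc
CENPF (chr1:214603045-214603194, plus strand): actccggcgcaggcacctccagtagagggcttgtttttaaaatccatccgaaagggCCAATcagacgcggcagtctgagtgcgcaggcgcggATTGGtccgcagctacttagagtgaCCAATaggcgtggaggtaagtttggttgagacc
CENPE (chr4:103198344-103198493, minus strand): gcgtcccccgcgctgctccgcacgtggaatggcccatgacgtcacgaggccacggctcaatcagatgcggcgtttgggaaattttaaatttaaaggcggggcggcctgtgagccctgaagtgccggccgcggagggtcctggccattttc

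The CHR letters were found in 20 of the 40 windows (50%), against 11.8% of 11682 windows of tested genes and 16.4% of all 35116 windows. CCAAT was found in 25 windows (62.5%), against 35.3% and 34.6% of those 2 backgrounds, and both motifs in 14 windows (35%), against 4.85% and 6.38%. Windows of genes that fell at 25 µg/ml over all times held the CHR letters in 8 of 10 cases (80%), and the other windows in 12 of 30 (40%). For CCAAT the same split was 6 of 10 (60%) and 19 of 30 (63.3%). E2F letters were in 4 windows (10%), against 4.39% and 2.74%, and the split was 2 of 10 (20%) and 2 of 30 (6.67%). Of 22 CHR matches, 19 (86.4%) lay within 50 bases of the annotated start, against 28.8% of the 1529 matches in promoters of tested genes. Sites shared by 2 overlapping windows of a gene were counted in each window. These were CHR and CCAAT sites of ZWINT and CCAAT sites of MIS12 and SGOL2. The match lay 18 bases upstream of the start in CENPA and 23 bases upstream in CDCA8, where its last letters also begin an ATTGG. It lay 111 bases upstream in HJURP, and at positions 41 and 17 downstream of the start in CENPF and NUF2. CENPE and CENPK had no CHR match in their windows, and CENPK had 3 CCAAT matches. These are matches of letters and no measurement of binding.

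**Figure D1:**
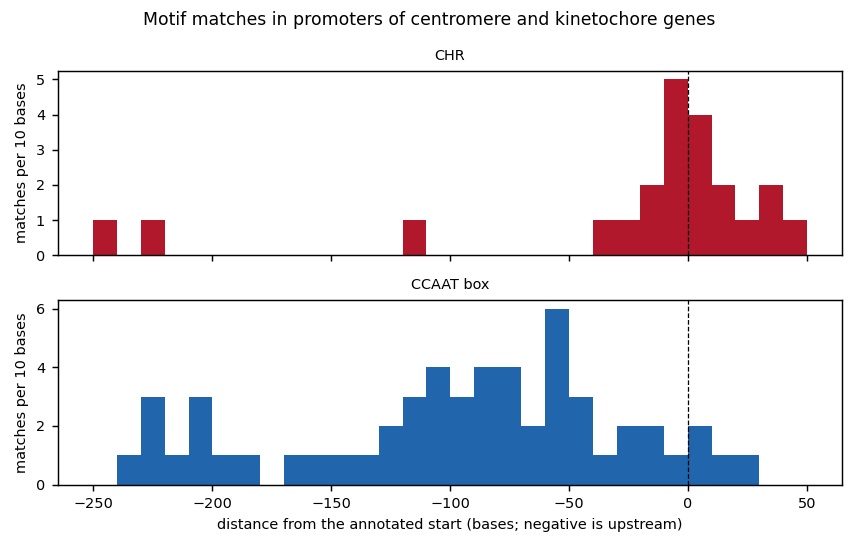
Positions of CHR matches (upper panel) and CCAAT matches (lower panel) in 40 promoter windows of the centromere and kinetochore genes, in 10-base bins against the distance from the annotated start in bases (negative is upstream). Of 22 CHR matches, 19 lie within 50 bases of the start, whereas CCAAT matches spread over the upstream bases.

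Levels spanned a wide range. BUB3, which carries checkpoint proteins to the kinetochore, had the highest mean over all libraries at 158 FPKM, followed by CENPW (155 FPKM), ZWINT (152 FPKM) and MAD2L1 (123 FPKM). CENPP and NSL1 were lowest, with means of 5.97 and 6.04 FPKM. The histone CENPA ranked 21st of 43 at 36.1 FPKM. Markers matched the labelled line. The 12 T cell markers of the line were all measured, with a summed level of 1782 to 2029 FPKM per library, whereas 4 natural killer cell markers summed to at most 0.848 FPKM and 4 myeloid markers to at most 0.544 FPKM. Of 4 B cell markers 1 reached a mean of 1 FPKM, CD79A, and the 4 summed to 33.6 to 48.6 FPKM. EPCAM, HBB and COL1A2 were listed at 0 in all 17 libraries.

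A pair of libraries stood apart. In replicate 1 of 12.5 µg/ml at 6 h, deviations from the mean library followed transcript length (Spearman correlation of -0.60 over 11153 genes, which do not count as replicates), and in replicate 2 of 25 µg/ml at 24 h they followed GC content (0.56). Length and GC content were those of the longest GENCODE v29 transcript of each symbol, which may not be the one expressed in these cells. Among the 43 genes those with long transcripts by this measure went both ways in the 12.5 µg/ml library. CENPF had 46.2 FPKM there and 55.2 FPKM in its duplicate, and KNTC1 20.5 and 24.5 FPKM. CASC5 had 20.7 FPKM there, its lowest value in any library. BUB3 had 171 FPKM there and 157 FPKM in the duplicate, and MAD2L1 140 and 122 FPKM, both at their highest in any library. For the genes called at 24 h, values without the 25 µg/ml library are given as well. Per the labels, lane 4 held the 24 h libraries with the first 6 h library of each dose, and lane 5 held the 12 h libraries with the second. Exons of 12 of the 43 genes overlap an exon of another gene in the table (GENCODE v29), 11 of them on the opposite strand. They are CENPL, CENPO, CENPP, CENPT, ITGB3BP, MIS12, NUF2, SGOL2, SPAG5, SPC24 and ZWILCH, and PMF1 on the same strand, and their values are uncertain because use of strand is not stated. Overlaps with genes whose symbols the table lacks add to this. CENPA overlaps SLC35F6 on the same strand, and on the opposite strand HJURP overlaps MROH2A and OIP5 overlaps OIP5-AS1. MAD2L1, CENPN and SGOL1 also have such overlaps on the opposite strand, and these values are uncertain too.

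Exposure to 25 µg/ml was compared with untreated cells over the 3 times, with each time given equal weight. Of the 43 genes 11 fell, 1 rose and 31 did not pass (limma adjusted p under 0.05 over all 12015 genes). Over all genes tested 4.0% fell (481) and 5.47% rose (657). With libraries centred on their medians 765 of all genes fell and 393 rose, and of the 43 genes 15 fell and none rose. With quantile normalization 653 of all genes fell and 539 rose, and of the 43 genes 12 fell and 1 rose. The genes that fell were CENPA, HJURP, OIP5, CENPM, CENPK, NDC80, NUF2, SKA3, CENPE, CENPF and CDCA8, and the one that rose was MIS12. The median change was -0.09 on the log2(FPKM + 1) scale, against 0.02 over all genes, and 36 of the 43 (83.7%) lay below 0, against 42.7% of all genes. Among 32 other ways of processing the data the median of the 43 genes stayed between -0.12 and -0.06. Untreated cells at 12 h entered with 1 library, which was assumed to vary like the other groups.

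**Figure D2:**
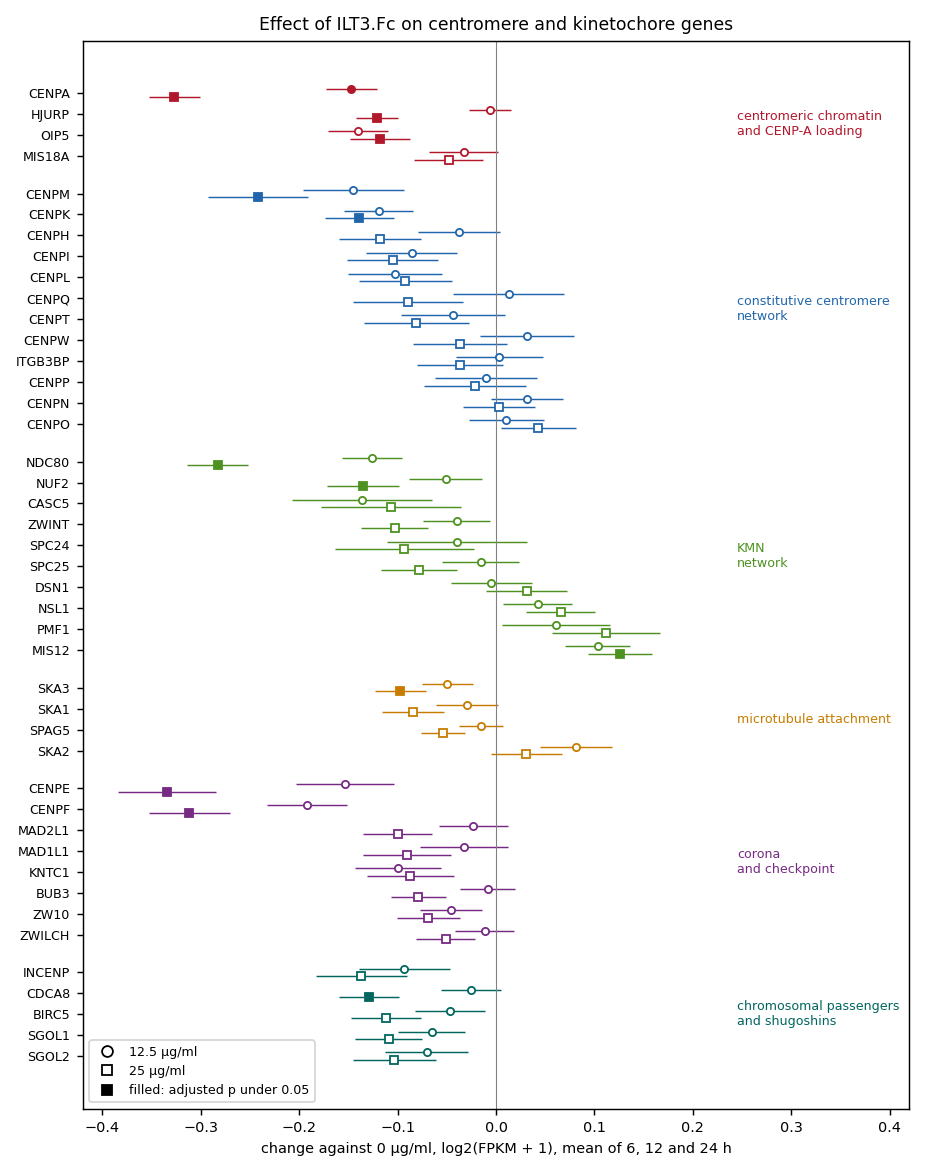
Change of each gene against untreated cells, as the mean of 6, 12 and 24 h on the log2(FPKM + 1) scale, at 12.5 µg/ml (circles) and 25 µg/ml (squares), with bars of 1 standard error and genes grouped by role. At 25 µg/ml 11 genes lie below 0 with an adjusted p under 0.05 and MIS12 lies above, and at 12.5 µg/ml CENPA alone passes.

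Centromeric chromatin held the gene with the smallest adjusted p. CENPA, the centromeric histone, had 32.8 and 33.7 FPKM with 25 µg/ml against 38.7 and 37.6 FPKM in untreated cells at 6 h. At 12 h it had 32.4 and 32.9 FPKM with 25 µg/ml against 40.3 FPKM in the untreated library, and at 24 h 30.6 and 30.2 FPKM against 43.8 and 42.5 FPKM. Every library with 25 µg/ml lay below every untreated library, within and across times. CENPA fell by 0.33 (SE 0.026, limma adjusted p = 8.96e-05), and no single library that was left out ended the call. Its chaperone HJURP had 40.4 to 42.6 FPKM in the 6 libraries with 25 µg/ml (median 40.8) and 43.3 to 45.6 FPKM in the 5 untreated libraries (median 44.6), again without overlap. HJURP fell by 0.12 (SE 0.021, adjusted p = 0.00681), at about the same size at 6, 12 and 24 h (-0.11, -0.12 and -0.12), and stood at -0.12 without the 24 h libraries (adjusted p = 0.135).

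Of the 2 Mis18 genes 1 passed. OIP5, which encodes Mis18 beta, fell by 0.12 (SE 0.031, limma adjusted p = 0.0366), with its change at 24 h (-0.03) closer to 0 than at 6 h (-0.17) and 12 h (-0.16). The OIP5 call was lost when any of 14 of the 17 libraries was left out, although its value stayed between -0.13 and -0.10. Among the 14 were 12.5 µg/ml libraries of 12 and 24 h, which do not enter this comparison. Without them the value was still -0.12, and only the shared spread and the adjustment could change. MIS18A was at -0.05 (adjusted p = 0.434), with 53.3 to 57.9 FPKM at 25 µg/ml and 55.1 to 61.9 FPKM in untreated cells.

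In the constitutive network 2 of 12 genes fell, none rose and 10 did not pass. CENPM, a subunit of the network's CENP-H/I/K/M complex, had 75.3 and 69.8 FPKM at 25 µg/ml against 84.3 and 85.0 FPKM untreated at 6 h. At 12 h it had 64.2 and 66.2 FPKM against 78.2 FPKM, and at 24 h 64.1 and 71.9 FPKM against 79.9 and 81.4 FPKM. CENPM lay below untreated cells at every time, and fell by 0.24 (SE 0.051, limma adjusted p = 0.0153). The change was of like size at 6, 12 and 24 h (-0.22, -0.26 and -0.25), and without the 24 h libraries it was -0.24 (adjusted p = 0.182). Leaving out the 12 h samples also ended the call, at -0.23 (limma adjusted p = 0.0828).

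CENPK had 24.8 and 25.4 FPKM at 25 µg/ml against 25.8 and 25.2 FPKM untreated at 6 h, where the groups overlapped, and 22.0 and 21.7 FPKM against 26.4 and 29.4 FPKM at 24 h, where they did not. Over all times CENPK fell by 0.14 (SE 0.035, limma adjusted p = 0.0327), and stood at -0.04 without the 24 h libraries (adjusted p = 0.646). The other 10 genes of the network ranged from -0.12 (CENPH, adjusted p = 0.101) to 0.04 (CENPO, adjusted p = 0.526). CENPN, which reads CENP-A nucleosomes, was at 0.00 (SE 0.037), and CENPT, which binds DNA and recruits the Ndc80 complex, at -0.08 (SE 0.053, adjusted p = 0.375).

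The KMN network moved in both directions. Of its 10 genes 2 fell, 1 rose and 7 did not pass. NDC80, the subunit that grips the microtubule, had 31.9 and 33.0 FPKM at 25 µg/ml against 35.4 and 33.7 FPKM untreated at 6 h. It had 32.5 and 32.5 FPKM against 38.4 FPKM at 12 h, and 27.8 and 27.7 FPKM against 39.5 and 41.2 FPKM at 24 h. The gap between the groups was thus widest at 24 h, and the groups did not overlap at any time. NDC80 fell by 0.28 (SE 0.031, limma adjusted p = 5.2e-04).

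NUF2, the partner that forms a coiled coil with NDC80, fell by 0.14 (SE 0.037, limma adjusted p = 0.0431). It had 44.9 to 54.5 FPKM in the 6 libraries with 25 µg/ml (median 52.7) and 54.7 to 58.1 FPKM in the 5 untreated libraries (median 56.6), a narrow gap with no overlap. The NUF2 call was lost when any of 11 libraries was left out, with values between -0.16 and -0.11, and its exons overlap those of RGS5 on the opposite strand. The 2 genes for the inner end of the Ndc80 complex did not pass. SPC24 stood at -0.09 (SE 0.071, adjusted p = 0.456) and SPC25 at -0.08 (SE 0.039, adjusted p = 0.231).

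All 4 genes of the Mis12 complex lay above 0 over all times, and 1 passed. MIS12 had 37.5 and 36.2 FPKM at 25 µg/ml against 33.8 and 34.1 FPKM untreated at 6 h, 36.2 and 35.9 FPKM against 31.5 FPKM at 12 h, and 33.6 and 31.7 FPKM against 29.6 and 32.2 FPKM at 24 h. The groups were apart at 6 and 12 h and overlapped at 24 h. MIS12 rose by 0.13 (SE 0.033, limma adjusted p = 0.0364), a call lost under 18 of 32 alternatives, 11 of them with 1 library left out (values 0.09 to 0.15). PMF1 was at 0.11 (adjusted p = 0.224), NSL1 at 0.07 (adjusted p = 0.265) and DSN1 at 0.03 (adjusted p = 0.697), and without the 24 h libraries PMF1 and DSN1 were both just below 0. MIS12 overlaps DERL2 on the opposite strand, and PMF1 shares exons with the readthrough gene PMF1-BGLAP on the same strand, so that reads of the 2 cannot be separated here. CASC5, the symbol for KNL1, the checkpoint scaffold of the network, was at -0.11 (SE 0.071, adjusted p = 0.384), and its partner ZWINT at -0.10 (SE 0.034, adjusted p = 0.0835).

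**Figure D3:**
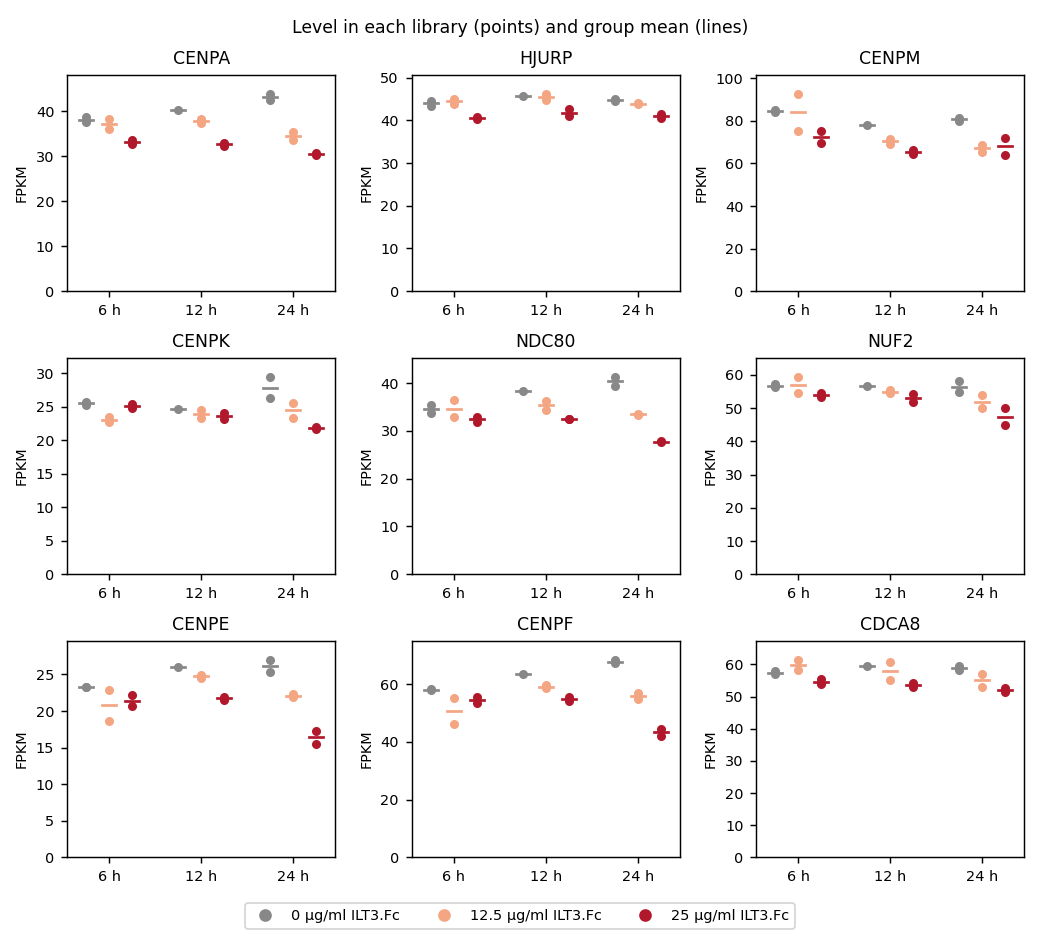
FPKM in each library (points) and group means (lines) at 6, 12 and 24 h for 9 genes that fell, with 0 µg/ml in grey, 12.5 µg/ml in light orange and 25 µg/ml in red. At 24 h CENPE, CENPF, NDC80 and CENPA step down with dose without overlap, and CENPM is about level between the 12.5 and 25 µg/ml groups.

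Of 4 genes for microtubule attachment 1 fell. SKA3, a subunit of the Ska complex that supports the grip on microtubules, had 46.4 and 44.4 FPKM at 25 µg/ml against 47.8 and 50.0 FPKM untreated at 6 h. It had 47.4 and 49.0 FPKM against 50.3 FPKM at 12 h, and 49.2 and 47.5 FPKM against 51.6 and 54.4 FPKM at 24 h. The groups overlapped across times and not within them. The change of SKA3 was -0.10 (SE 0.026, limma adjusted p = 0.0390), a call lost when any of 11 libraries was left out. SKA1 was at -0.08 (adjusted p = 0.121), SPAG5, which encodes astrin, at -0.05 (adjusted p = 0.162) and SKA2 at 0.03 (adjusted p = 0.653).

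In the corona and checkpoint group 2 of 8 genes fell and none rose, and all 8 lay below 0. CENPE encodes the plus-end kinesin that moves chromosomes towards the spindle equator. It had 20.7 and 22.2 FPKM at 25 µg/ml against 23.3 and 23.2 FPKM untreated at 6 h, and 22.0 and 21.5 FPKM against 26.0 FPKM at 12 h. At 24 h it had 17.3 and 15.5 FPKM against 25.4 and 26.9 FPKM. The groups were apart at all times and furthest apart at 24 h. CENPE fell by 0.33 (SE 0.050, limma adjusted p = 0.00293).

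CENPF, a large corona protein that binds microtubules and dynein regulators, followed the same course. It had 53.4 and 55.6 FPKM at 25 µg/ml against 57.9 and 58.2 FPKM untreated at 6 h, 55.7 and 54.2 FPKM against 63.7 FPKM at 12 h, and 44.5 and 42.2 FPKM against 67.3 and 68.3 FPKM at 24 h. CENPF fell by 0.31 (SE 0.041, limma adjusted p = 0.00142). Without the 24 h libraries CENPE stood at -0.18 (adjusted p = 0.284), CENPF at -0.15 (adjusted p = 0.30) and NDC80 at -0.16 (adjusted p = 0.162), whereas CENPA kept its call at -0.24 (adjusted p = 0.0396). The other 6 genes of the corona and checkpoint did not pass. MAD2L1, the checkpoint protein that holds back anaphase, was at -0.10 (SE 0.035, adjusted p = 0.0989), its receptor MAD1L1 at -0.09 (adjusted p = 0.227) and BUB3 at -0.08 (SE 0.028, adjusted p = 0.103). The RZZ genes, which recruit dynein and MAD1 to the corona, were at -0.09 (KNTC1), -0.07 (ZW10) and -0.05 (ZWILCH).

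All 5 passenger and shugoshin genes lay below 0, and 1 passed. CDCA8, which encodes borealin, had 55.5 and 53.9 FPKM at 25 µg/ml against 57.0 and 57.8 FPKM untreated at 6 h. It had 53.0 and 54.2 FPKM against 59.4 FPKM at 12 h, and 51.5 and 52.8 FPKM against 59.5 and 58.3 FPKM at 24 h. No library with 25 µg/ml reached the lowest untreated library. CDCA8 fell by 0.13 (SE 0.030, limma adjusted p = 0.0251), a call lost when any of 7 libraries was left out (values -0.14 to -0.12). INCENP was at -0.14 (SE 0.046, adjusted p = 0.0893), BIRC5, which encodes survivin, at -0.11 (SE 0.035, adjusted p = 0.0718), and the shugoshin genes SGOL1 and SGOL2, which protect centromeric cohesion, at -0.11 (adjusted p = 0.0705) and -0.10 (adjusted p = 0.150).

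Groups were also compared by overlap alone. With 25 µg/ml, 19 of the 43 genes lay below every untreated library of the same time at 6, 12 and 24 h, against 5.81% of all genes tested. Without replicate 2 of 25 µg/ml at 24 h it was 20 of the 43, against 7.84% of all genes. These 19 came from all roles, with 2 of chromatin (CENPA, HJURP), CENPM of the constitutive network, ZWINT, NDC80 and NUF2 of the KMN network, SKA3 and SPAG5, 6 of the corona and all 5 passengers and shugoshins. ZWINT, SPAG5, ZW10, KNTC1, MAD2L1, BUB3, INCENP, BIRC5, SGOL1 and SGOL2 of these did not pass the test.

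At the lower dose the median change of the 43 genes was -0.04 over all times. At 12.5 µg/ml CENPA fell by 0.15 over all times (SE 0.026, limma adjusted p = 0.0496), and the other 42 genes did not pass, where 0.117% of all genes fell and 0.166% rose. The call was lost when any of 15 libraries was left out. At 12.5 µg/ml none of the 43 genes passed at 6 h (0.00832% of all genes fell and 0.0166% rose in limma) or at 12 h (0.0166% fell and 0.0250% rose). Over all times CENPF was at -0.19 (adjusted p = 0.0968), CENPE at -0.15 and NDC80 at -0.13. Both doses were set against the same untreated libraries, so their values are given side by side only. The doses themselves were compared as 25 against 12.5 µg/ml, where CENPA fell by 0.18 (SE 0.024, adjusted p = 0.0143) and HJURP by 0.11 (SE 0.020, adjusted p = 0.0484), where 0.216% of all genes fell and 0.0666% rose. HJURP was at -0.01 for 12.5 µg/ml against untreated cells, with means at 6 h of 44.4 FPKM at 12.5 µg/ml and 44.0 FPKM in untreated cells. Between the doses the CENPA call was lost when any of 5 libraries was left out, and the HJURP call when any of 14 was. The 12.5 µg/ml group at 6 h includes the library whose deviations followed transcript length.

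**Figure D4:**
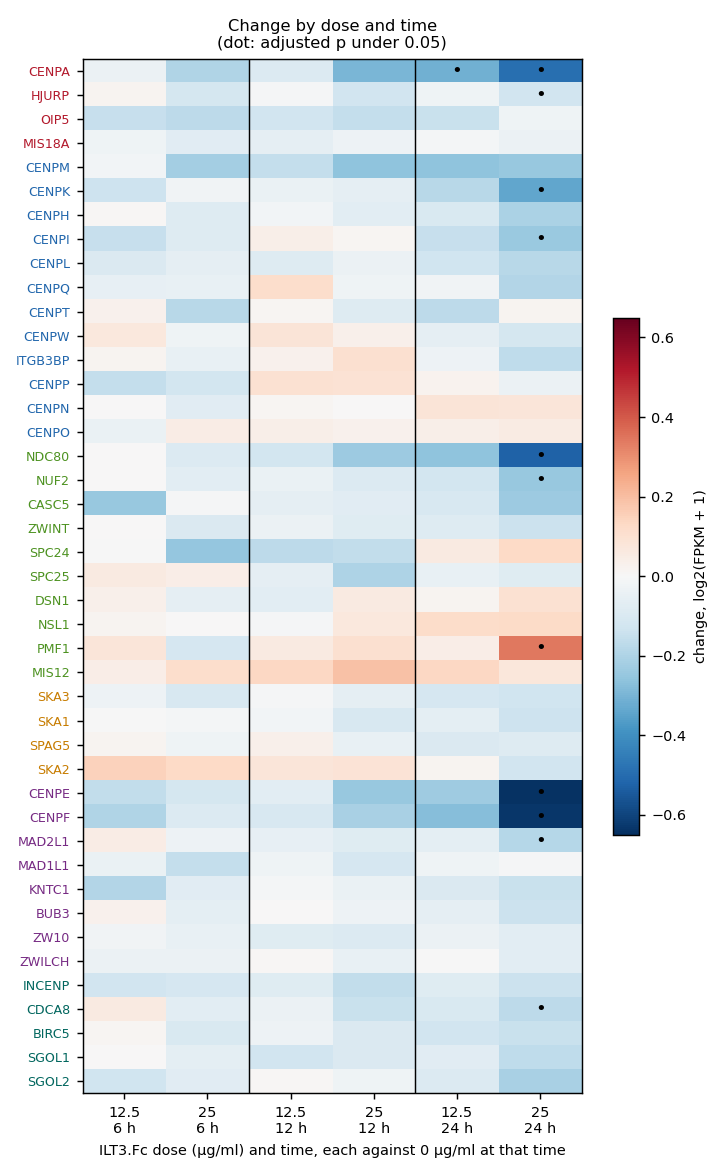
Change of each gene on the log2(FPKM + 1) scale for each dose and time against untreated cells of that time, with genes in rows by role, red for higher, blue for lower and a dot for an adjusted p under 0.05. Dots stand almost all in the column of 25 µg/ml at 24 h, where 10 genes fell and PMF1 rose, and CENPA has the one other dot, at 12.5 µg/ml and 24 h.

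Within single times the calls came at 24 h. At 6 h none of the 43 genes passed for 25 µg/ml against untreated cells, where 0.166% of all genes fell and 0.0583% rose in limma. Of the 43 genes 30 lay below both untreated libraries without overlap at 6 h, against 25.9% of all genes. At 12 h, with 1 untreated library, none passed either (0.0166% of all genes fell and 0.0333% rose). CENPA was nearest at -0.30 (limma adjusted p = 0.0796).

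At 24 h 10 genes fell, 1 rose and 32 did not pass, where 5.76% of all genes fell (692) and 10.7% rose (1286). With median centring 17 of the 43 genes fell and none rose, against 984 of all genes that fell and 758 that rose. With quantile normalization 18 fell and 1 rose, against 957 and 951 of all genes. The median change of the 43 genes was -0.14, against 0.04 over all genes, and 29 lay below both untreated libraries without overlap, against 23.1% of all genes. Without replicate 2 of 25 µg/ml 5 of the 43 genes fell and none rose (248 and 354 of all genes), the median was -0.13, and 31 lay below both untreated libraries, against 32.5% of all genes. CENPE fell by 0.64 (SE 0.080, limma adjusted p = 8.62e-04) to a mean of 16.4 ± 1.25 FPKM at 25 µg/ml, against 26.2 ± 1.11 FPKM untreated (SD, n = 2 each), or 62.7% of the untreated level. CENPF fell by 0.63 (SE 0.065, adjusted p = 3.59e-04) to 43.4 ± 1.65 FPKM, against 67.8 ± 0.687 FPKM, or 63.9%. NDC80 fell by 0.52 (SE 0.049, adjusted p = 2.53e-04) to 68.8% and CENPA by 0.49 (SE 0.041, adjusted p = 9.83e-05) to 70.5% of the untreated level. These 4 genes passed under all 30 alternatives that could give a value at 24 h. Without replicate 2 of 25 µg/ml at 24 h they stood at -0.57, -0.60, -0.52 and -0.48 (CENPE, CENPF, NDC80 and CENPA), with adjusted p of 0.0119, 0.00586, 0.0040 and 0.00235.

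The other 6 genes that fell at 24 h had smaller values. CENPK fell by 0.34 (limma adjusted p = 0.00366), NUF2 by 0.25 (adjusted p = 0.0184), CENPI by 0.24 (adjusted p = 0.0457), MAD2L1 by 0.19 (adjusted p = 0.0453), CDCA8 by 0.17 (adjusted p = 0.0359) and HJURP by 0.12 (adjusted p = 0.0345). Without replicate 2 of 25 µg/ml CENPK kept its call at -0.33 (adjusted p = 0.0329). The other 5 lost theirs, with CENPI at -0.17 (adjusted p = 0.293), MAD2L1 at -0.14 (adjusted p = 0.263), CDCA8 at -0.19 (adjusted p = 0.108), HJURP at -0.11 (adjusted p = 0.178) and NUF2 at -0.17 (adjusted p = 0.155). NUF2 was at -0.20 without replicate 2 of the untreated group (adjusted p = 0.144). CENPI and MAD2L1 each lost the call when any of 13 libraries was left out, CDCA8 when any of 10 was, and HJURP when any of 5 was. CENPM, which fell over all times, stood at -0.25 at 24 h and did not pass.

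PMF1 moved the other way at 24 h. It had 48.9 and 53.5 FPKM at 25 µg/ml against 39.9 and 40.4 FPKM in untreated cells, without overlap, and rose by 0.34 (SE 0.088, limma adjusted p = 0.0244). The call was lost without either untreated library (0.33 and 0.35, adjusted p = 0.0939 and 0.114) and without replicate 2 of 25 µg/ml (0.28, adjusted p = 0.174). At 6 h PMF1 was lower with 25 µg/ml, at 46.0 and 42.4 FPKM against 46.6 and 48.9 FPKM.

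Base composition moved with the changes at 24 h. The 43 genes had a median GC content of 42.5%, against 48.1% over all tested genes, and across the 43 genes GC content and the change at 24 h had a Spearman correlation of 0.41. Across all 11153 genes with a GC value it was 0.43. For the changes over all times it was 0.04 across the 43 genes and 0.10 across all. With each library corrected for GC content and transcript length, CENPF stood at -0.61, CENPE at -0.58, CENPA at -0.51, NDC80 at -0.49 and CENPK at -0.25 at 24 h, and all 5 passed. After this correction 18 of the 43 genes fell and 2 rose at 24 h (1163 and 945 of all genes), and over all times 21 fell and 1 rose (1094 and 851 of all genes).

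The dose of 12.5 µg/ml at 24 h lay between untreated cells and 25 µg/ml for several genes. CENPA had 33.6 and 35.4 FPKM at 12.5 µg/ml and fell by 0.31 against untreated cells (SE 0.041, limma adjusted p = 0.0317), the one gene of the 43 that passed (0.0916% of all genes fell and 0.0250% rose). This call was lost when any of 10 libraries was left out, with values between -0.35 and -0.28. NDC80 was at -0.26 (adjusted p = 0.0993), CENPF at -0.27 and CENPE at -0.23. At 24 h 22 of the 43 genes lay below both untreated libraries at 12.5 µg/ml without overlap, against 18.4% of all genes. The libraries of 12 genes stood in falling order at 0, 12.5 and 25 µg/ml with no overlap between doses, against 6.85% of all genes. Without replicate 2 of 25 µg/ml it was 14 genes, against 9.25% of all genes. The 12 were CENPA, HJURP, CENPK, NDC80, NUF2, SKA1, CENPE, CENPF, MAD2L1, BUB3, BIRC5 and CDCA8. CENPF, for example, had 67.3 and 68.3 FPKM at 0 µg/ml, 54.9 and 56.9 FPKM at 12.5 µg/ml, and 44.5 and 42.2 FPKM at 25 µg/ml.

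Time in culture was compared as 24 h against 6 h. In untreated cells NDC80 rose by 0.22 (SE 0.049, limma adjusted p = 0.0467), with 39.5 and 41.2 FPKM at 24 h against 35.4 and 33.7 FPKM at 6 h, and no other of the 43 genes passed, where 0.558% of all genes rose and 1.77% fell. The NDC80 call was lost when any of 12 of the 17 libraries was left out, with values between 0.18 and 0.25. CENPF (0.22, adjusted p = 0.10) and CENPA (0.17, adjusted p = 0.0543) were also above 0. With 25 µg/ml, 7 genes fell and none rose, where 7.32% of all genes fell and 11.8% rose. They were CENPE (-0.37, adjusted p = 0.0104), CENPF (-0.32, adjusted p = 0.00742), SKA2 (-0.27), CENPH (-0.25), NDC80 (-0.22, adjusted p = 0.0125), CENPK (-0.19) and MIS12 (-0.17). No member passed in this comparison without replicate 2 of 25 µg/ml at 24 h or without replicate 2 of 25 µg/ml at 6 h, when CENPE was at -0.29 and -0.32. The 6 h pairs were split over both lanes and the 24 h libraries were in lane 4, and within lane 4 CENPE was at -0.32 (adjusted p = 0.0989) and CENPF at -0.29 (adjusted p = 0.0711).

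**Figure D5:**
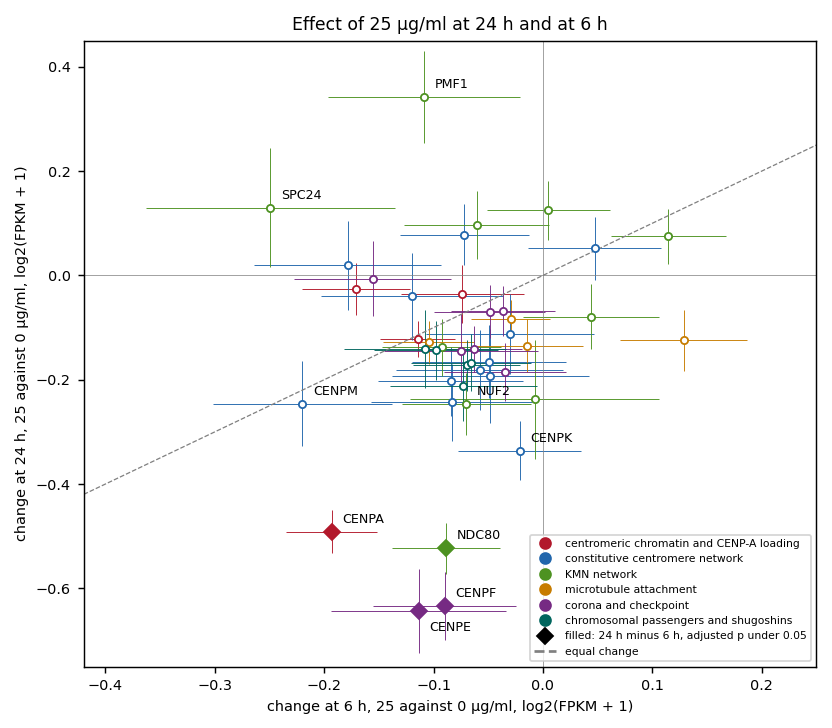
Change with 25 µg/ml against untreated cells at 24 h (vertical) and at 6 h (horizontal) on the log2(FPKM + 1) scale for each gene, coloured by role, with bars of 1 standard error and a dashed line of equal change. The 4 filled diamonds (CENPA, NDC80, CENPF and CENPE) lie well below the line, at -0.49 to -0.64 at 24 h and -0.09 to -0.19 at 6 h.

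The difference between the effects of 25 µg/ml at 24 h and at 6 h was tested as an interaction. It was below 0 for CENPF, CENPE, NDC80 and CENPA (-0.54, -0.53, -0.43 and -0.30), and the other 39 genes did not pass. None of the 43 passed without replicate 2 of 25 µg/ml at 24 h. Over all genes 0.949% had a lower and 2.35% a higher effect at 24 h. PMF1 was nearest on the other side at 0.45 (adjusted p = 0.0730).

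Lanes were also looked at apart. In lane 4, which holds 24 h and 6 h libraries, CENPF stood at -0.37 (limma adjusted p = 0.0351), CENPA at -0.36 (adjusted p = 0.0392), NDC80 at -0.33 (adjusted p = 0.0369) and CENPE at -0.40 (adjusted p = 0.0791) for 25 µg/ml against untreated cells. In lane 5, which holds no 24 h library, no member passed, and CENPA stood at -0.22 (adjusted p = 0.130), CENPE at -0.15, CENPF at -0.14 and NDC80 at -0.13. Lane and time cannot be told apart for 12 and 24 h. With lane as a term in the model, 11 of the 43 genes fell and 1 rose over all times. Within each time the doses were spread alike over the lanes. The term could therefore alter the error of a dose effect and not its size, so this count is no check on lane.

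Other genes that act with the kinetochore were read from lists. Of 9 kinases of the kinetochore 8 fell over all times at 25 µg/ml and none rose (median -0.16). PLK1 fell by 0.44, AURKA by 0.26, NEK2 by 0.18 and AURKB, the kinase that the passengers carry, by 0.16 (limma adjusted p = 2.24e-05, 0.00167, 0.00222 and 0.0355), and GSG2, the kinase haspin, was at 0.01. Of 10 other centromere genes none fell and CENPJ, a centriole protein gene, rose by 0.12 (adjusted p = 0.0435), with CENPB at 0.04 and CENPC1 at -0.05 (median of the list 0.04). In the list for cohesion and anaphase 7 of 15 fell, among them CCNB2 (-0.38), CDC20 (-0.36), CCNB1 (-0.30) and PTTG1 (-0.29), with a median of -0.09.

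Of 8 condensin genes 2 fell, NCAPG by 0.29 and NCAPD2 by 0.20, and the median was -0.05. Of 19 spindle genes 6 fell and 1, CLIP1, rose (median -0.07), with HMMR at -0.52 and KIF20A at -0.40. Of 18 genes of S phase and the G1/S step 4 fell, among them MCM5 (-0.15) and MCM6 (-0.14), and the median was -0.05. Of 12 tested cycle regulators CDKN1B fell by 0.16 and RBL2 rose by 0.18, and FOXM1 and MYBL2, which encode activators of late cell cycle genes, were at 0.01 and -0.03 (median 0.00). TOP2A, a marker of dividing cells, fell by 0.31 and MKI67 was at -0.12 (adjusted p = 0.258). Whether the share of cells near mitosis differed between groups was not tested.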

How the data were processed

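RNA-seq of polyadenylated RNA was deposited for 17 libraries of Jurkat cells. The authors deposited one table of FPKM values with a column for each library, and TopHat2 2.1.0 is named in the submitters' processing notes. Not given in the sources used here are the quantifier, genome build, annotation and use of strand. Of 25593 lines, 45 repeated a symbol, and of such lines the one highest on average was used. FPKM holds no counts, so the absolute depth is unknown. Relative depth was read from the most common ratio of each library to the same reference library. The ratios came from those of 6620 genes with a mean below 0.3 FPKM that were above 0 in both. Relative depth was 0.671 to 1.00 of the deepest library, and FPKM sums were 504363 to 557389.

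Values were analysed as log2(FPKM + 1), which understates changes of low genes, for the 12015 genes that averaged at least 1 FPKM. limma 3.58.1 in R 4.3.3 fitted a mean for each of 9 groups with 8 residual degrees of freedom, a variance trend and empirical Bayes moderation. Tests were two-sided, with Benjamini-Hochberg adjustment over all genes tested and a threshold of 0.05. The fit was tested on simulated data with 200 changed genes. The genes, their roles, the lists and the tests were chosen with earlier results of these data known. Genes were named by role, with values in every library for the called genes that changed most in each role; HJURP, CENPK, NUF2, MIS12, PMF1 and CENPF were added after their values were seen.

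Alternatives changed the pseudocount to 0.1, the filter (none, or a mean of 5 FPKM), the scaling, the variance trend, the lane, the times used and the replicate number as a block, corrected each library for GC content and transcript length (loess, span 0.3, GENCODE v29, 11153 genes), or left out each library in turn. One, without both libraries that stood apart, was chosen after seeing the data. Promoters came from RefSeq GRCh38.p14 and were matched by symbol, and no position was taken from the table.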

Additional observations from a re-analysis of the deposited data

Results flagged for a closer look

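The effect of 25 µg/ml against untreated cells differed between 24 h and 6 h for 4 of the 43 genes, by the interaction term in limma. The effect at 24 h minus that at 6 h was -0.54 on the log2 scale for CENPF (SE 0.093, adjusted p = 0.0172), -0.53 for CENPE (SE 0.113, adjusted p = 0.0358), -0.43 for NDC80 (SE 0.070, adjusted p = 0.0166) and -0.30 for CENPA (SE 0.059, adjusted p = 0.0260). CENPF had a change of -0.63 at 24 h and of -0.09 at 6 h, and CENPA of -0.49 and -0.19. All 4 lost the call without the 12 h libraries and in lane 4 alone, and when replicate 2 of 25 µg/ml or of untreated cells at 24 h was left out, or replicate 1 or 2 of untreated cells or replicate 2 of 25 µg/ml at 6 h. CENPF was at -0.51 without replicate 2 of 25 µg/ml at 24 h (adjusted p = 0.0718). Over all the single libraries left out, the differences ranged from -0.58 to -0.51 for CENPF, -0.60 to -0.46 for CENPE, -0.47 to -0.40 for NDC80 and -0.32 to -0.28 for CENPA.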

How the results depend on the processing

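Counts below are of the 43 genes called. No gene named for its call changed sign under any alternative. For 25 against 0 µg/ml over all times (12 called), the count was 22 with the GC content and length correction, 21 with that correction and the replicate block, 3 in lane 4, 0 in lane 5, 5 without 12 h and 1 without 24 h libraries, and 6 to 20 with 1 library left out (20 and 19 without replicate 1 or 2 of 12.5 µg/ml at 6 h). At 24 h (11 called) it was 20 with the correction, 19 with correction and block, 5 in lane 4, 17 with median centring, 19 with quantile normalization, 7 with no filter, with no variance trend or without 12 h libraries, and 5 to 21 with 1 library left out (5 without replicate 2 of 25 or 0 µg/ml at 24 h, 21 without either 12.5 µg/ml library at 6 h). At 6 h (0 called) it was 3 with the correction, 1 with correction and block, 3 without the 2 libraries that stood apart, and 0 to 2 with 1 library left out. At 12 h (0 called) it was 3 with the correction, alone or with the block, 1 with no filter, 1 without the 2 libraries that stood apart, and 0 to 1 with 1 library left out. For 12.5 against 0 µg/ml over all times (1 called) it was 5 with the correction, 6 with correction and block, 2 with quantile normalization, 5 without the 2 libraries that stood apart, and 0 to 8 with 1 library left out. It was 0 in lane 5, with lane as a covariate, with median centring, with no variance trend, with a pseudocount of 0.1, with the replicate block and without 12 h or 24 h libraries. For 25 against 12.5 µg/ml (2 called) it was 6 with the correction, 5 with correction and block, 1 with lane as a covariate, with no variance trend or with the block, 0 in either lane and without 12 h or 24 h libraries, and 0 to 10 with 1 library left out. For 12.5 against 0 µg/ml at 24 h (1 called) it was 6 with the correction, alone or with the block, 5 without the 2 libraries that stood apart, 0 in lane 4, with no variance trend, with the block and without 12 h libraries, and 0 to 3 with 1 library left out. For 24 against 6 h in untreated cells (1 called) it was 7 with the correction, 4 with correction and block, 6 without the 2 libraries that stood apart, 2 with median centring or quantile normalization, 0 in lane 4, with lane as a covariate, with no filter, with no variance trend, with the block and without 12 h libraries, and 0 to 4 with 1 library left out. For 24 against 6 h at 25 µg/ml (7 called) it was 15 with the correction, alone or with the block, 14 with quantile normalization, 0 in lane 4, 4 without 12 h libraries, and 0 to 16 with 1 library left out. For the effect at 24 h minus that at 6 h (4 called) it was 0 in lane 4 and without 12 h libraries, and 0 to 6 with 1 library left out. Of all 12015 genes, 1138 were called over all times, against 1945 with the correction, 1803 with correction and block, 1829 without the 2 libraries that stood apart, 488 without 12 h libraries, 46 without 24 h libraries, 42 in lane 4 and 8 in lane 5. The counts over all genes also shifted elsewhere. With the correction they went from 280 to 1011 for 24 against 6 h in untreated cells and from 2292 to 2512 at 25 µg/ml. For 25 against 0 µg/ml they went from 1978 to 2108 at 24 h, 27 to 103 at 6 h and 6 to 66 at 12 h. For 12.5 µg/ml they went from 34 to 211 over all times and 14 to 119 at 24 h, and between the doses from 34 to 161. With quantile normalization 2635 genes were called for 24 against 6 h at 25 µg/ml. The causes of these shifts were not tested, beyond the fewer samples that lanes and left-out times leave. The replicate block alone gave 8 over all times and 9 at 24 h. Differences between duplicates correlated at -0.18 to 0.13 between groups. This shows no pairing by replicate number, but with 1 difference per group it cannot exclude pairing. At 6 h replicate 1 of each dose was in lane 4 and replicate 2 in lane 5. FPKM gives no depth per value, so counting error is unknown.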
